A study of Mus musculus with 6 samples.

Results

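Transcripts of 8 cytokine genes were followed through RNA-seq libraries of mouse lung group 2 innate lymphoid cells (ILC2s): Il4, Il5, Il13, Il9, Il6, Il10, Il2 and Csf2, the last encoding granulocyte-macrophage colony-stimulating factor (GM-CSF). They were taken by name, 8 of the 18057 genes in the deposited table, and all 8 had enough counts to be tested. The study compared ILC2s with and without Piezo1, a mechanically gated cation channel, in 2 groups of 3 libraries. Control libraries carry the genotype Il7rcre, in which the Il7r locus drives Cre recombinase, although their titles call them WT, and the Piezo1_KO libraries carry Il7rcrePiezo1flx, a floxed Piezo1 on top of the same Cre. Il7r is active across lymphoid cells, so the deletion need not be limited to ILC2s. In both groups, mice received 3 intranasal doses of 1 µg recombinant IL-33, and the isolated ILC2s were then cultured for 24 h at 37 °C with 10 ng/mL of recombinant IL-2 and the same amount of IL-7 before 10 ng of RNA went into each library. All values therefore describe IL-33-primed, cytokine-cultured cells, and no unstimulated library is described here. The labels do not say whether the libraries of a group came from separate mice, so p-values reflect library-to-library spread that may be technical.

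ILC2s are tissue-resident lymphocytes without antigen receptors that answer epithelial alarmins such as IL-33 by secreting type 2 cytokines. IL-5 sustains eosinophils, IL-13 acts on goblet cells and airway smooth muscle, and IL-4 is the classical inducer of type 2 helper T cells. IL-9 supports ILC2s and mast cells, IL-6 and IL-10 are pleiotropic and regulatory cytokines, IL-2 is a lymphocyte growth factor, and GM-CSF supports macrophages, dendritic cells and eosinophils.

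Of the 8 genes, Csf2 fell in Piezo1_KO ILC2s, to 0.461 times its control level, and the other 7 did not pass the test. All 7 had positive log2 fold changes, from 0.26 (Il6 and Il13) to 1.79 (Il9), and the median over the 8 was 0.38, beside 0.018 over all genes tested. The 1 of 8 that passed, in the lower direction, compares with 1.51% of all 14149 genes tested that passed in either direction, 0.509% that passed lower and 1.00% that passed higher (edgeR quasi-likelihood test, Benjamini-Hochberg adjusted p under 0.05 over all genes). No member was called higher by edgeR, while 5 were higher and 1 was lower at an unadjusted p under 0.05, against 13.2% of all genes in either direction. DESeq2 and limma-voom each called Il5 higher and Csf2 lower. Over all genes DESeq2 called 593 of 13600 and limma-voom called 439 of 14149, more than edgeR did.

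**Figure D1:**
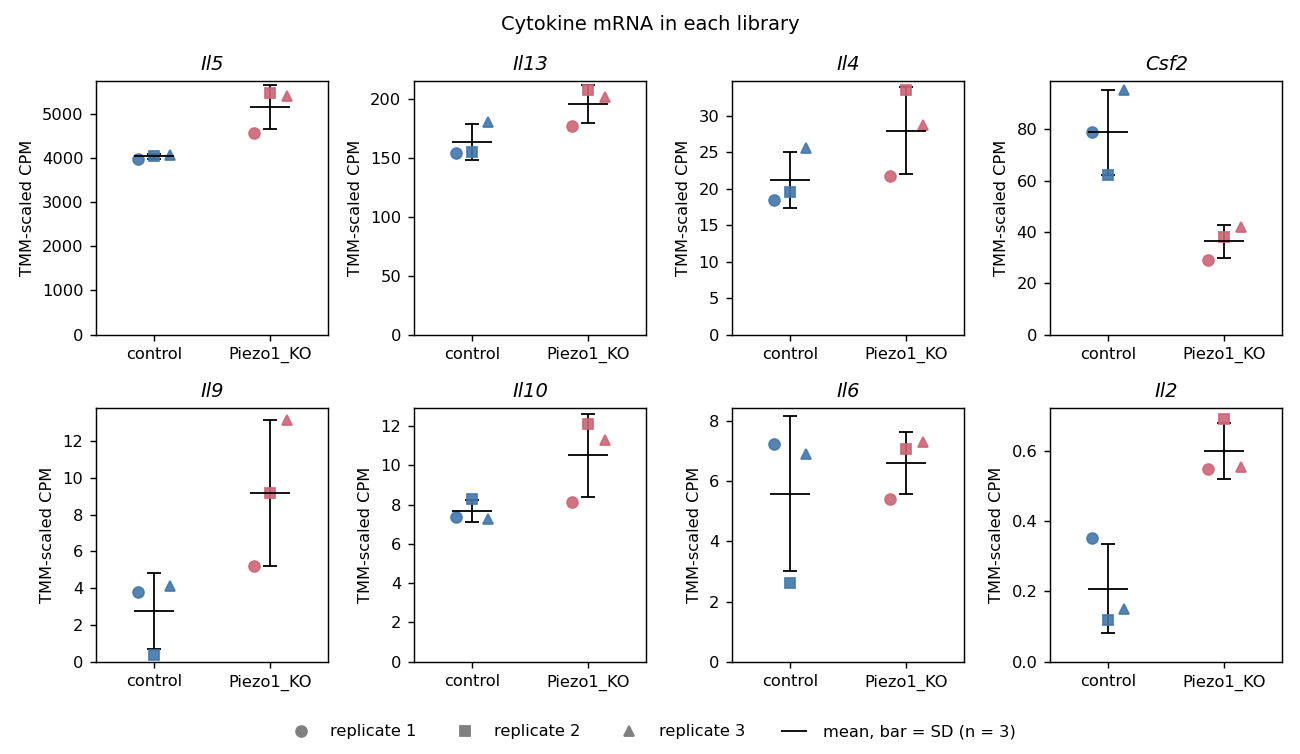
CPM (counts scaled to a common library total, with TMM factors) of each of the 8 genes in every library, with control libraries in blue, Piezo1_KO libraries in red, replicate numbers as symbols, and black lines for the group mean with an SD bar (n = 3). The 3 Piezo1_KO values of Csf2 lie under all 3 control values, those of Il5, Il9 and Il2 lie above them, and the groups of the other 4 genes overlap. Of all genes tested, 10.5% were lower and 10.1% were higher without overlap.

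Depth ran from 13059046 to 33459904 estimated counts per library. The targeted gene, Piezo1, was at 160 to 278 CPM in the control libraries and at 109 to 150 CPM in the Piezo1_KO libraries, a log2 fold change of -0.85 ± 0.21 (SE, n = 3) that did not pass (adjusted p = 0.112, edgeR). Piezo1 was called lower by DESeq2 (adjusted p = 0.00193), by limma-voom (0.0157), over protein-coding genes (0.0493, edgeR) and without control replicate 3 (0.0163, edgeR), and per-gene counts do not show the floxed exons themselves. All 13 ILC2 markers, among them Gata3, Il1rl1 and Klrg1, were over 1 CPM on average, and their summed level was 7895 to 8570 CPM in control and 8739 to 8956 CPM in Piezo1_KO. The sum was led by Il2ra, at 3469 and 4318 CPM on average, and Id2, at 1116 and 1430 CPM. Gata3 (986 and 737 CPM) and Il1rl1 (904 and 788 CPM) went the other way. None of these genes passed (edgeR). Within that list Il17rb rose (log2 fold change 0.74, adjusted p = 0.0136, edgeR), and Il7r (-1.03, 0.00722) and Icos (-0.61, 0.0168) fell. Of 13 T cell markers, 9 were measured, with a sum of 174 to 215 CPM in control and 164 to 196 CPM in Piezo1_KO, led by Trbc2 and Trbc1. Lck rose from 13.2 to 37.6 CPM and Cd28 fell from 8.32 to 3.07 CPM (adjusted p = 0.00384 and 0.0332, edgeR), and Cd3d, Trac and Cd6 stayed under 1 CPM on average. Neutrophil markers stayed under 1 CPM in sum in every library. Macrophage, monocyte and dendritic cell markers (12 of 16 measured) summed to 9.91 to 21.6 CPM in control and 6.85 to 13.3 CPM in Piezo1_KO. Those sums overlapped, and none of the 4 genes tested in that list passed (edgeR). Summed markers of 4 other lineages were higher in Piezo1_KO without overlap, each sum resting on few genes. Single genes higher without overlap made up 10.1% of all genes tested. The eosinophil sum was Ccr3 alone (given with Il5), which did not pass (adjusted p = 0.368, edgeR). B and plasma cell markers (4 of 8 measured, mostly Ighm and Cd79b) were at 34.9 to 40.7 CPM in control and 80.5 to 104 CPM in Piezo1_KO. Epithelial, endothelial and stromal markers (4 of 14 measured, mostly Pecam1) were at 52.0 to 60.8 and 85.2 to 87.7 CPM. Erythroid markers (3 of 6 measured, mostly Hba-a1) were at 3.70 to 5.25 and 26.7 to 31.3 CPM. In these lists Ighm, Pecam1, Hba-a1 and Hba-a2 were called higher (edgeR). The part of these lineages in the cytokine values was not tested. In bulk RNA, fewer cells making a cytokine and less of its RNA per cell cannot be told apart.

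The 8 mRNAs spanned a wide range of abundance, which was compared between genes on a per-length scale, CPM per kb of annotated exon. Il5 had rank 3 of 17579 genes with an exon length by its mean over all 6 libraries, and its rank was 4 to 5 in the control libraries and 3 in each Piezo1_KO library. Its level in control was 2627 ± 31.5 CPM per kb (SD, n = 3), 19.4 times that of Il13 at 135 ± 12.7. Csf2 followed at 98.6 ± 20.7 CPM per kb and Il4 at 17.3 ± 3.11. The lower end held Il10 at 5.84 ± 0.43, Il9 at 5.15 ± 3.85, Il6 at 2.30 ± 1.06 and Il2 at 0.181 ± 0.111 CPM per kb. Il10 overlapped Il9 and Il9 overlapped Il6 across the control libraries, whereas every other neighbouring pair in this order was separated in all 3.

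In Piezo1_KO libraries the order at the top was the same, but the distance from Il13 to Csf2 differed: the ratio of their means was 3.58, against 1.37 in control. Csf2 ranked between 445 and 654 per kb in the control libraries and between 1121 and 1617 in the Piezo1_KO libraries. Il9 stood above Il10 in the Piezo1_KO order, at 17.1 ± 7.42 CPM per kb, and its libraries overlapped those of Il4 at 22.8 ± 4.86. The places of Il4 and Il6 depended on which exons were counted in their lengths. Over the 590 bases of its main transcript, rather than 1227 bases of all annotated exons, Il4 was at 35.9 CPM per kb in control and 47.4 in Piezo1_KO, the latter next to Csf2 at 45.3. Over the 1141 bases of its main transcript, rather than 2428, Il6 was at 4.90 CPM per kb in control, next to Il9 at 5.15, and at 5.78 in Piezo1_KO.

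**Figure D2:**
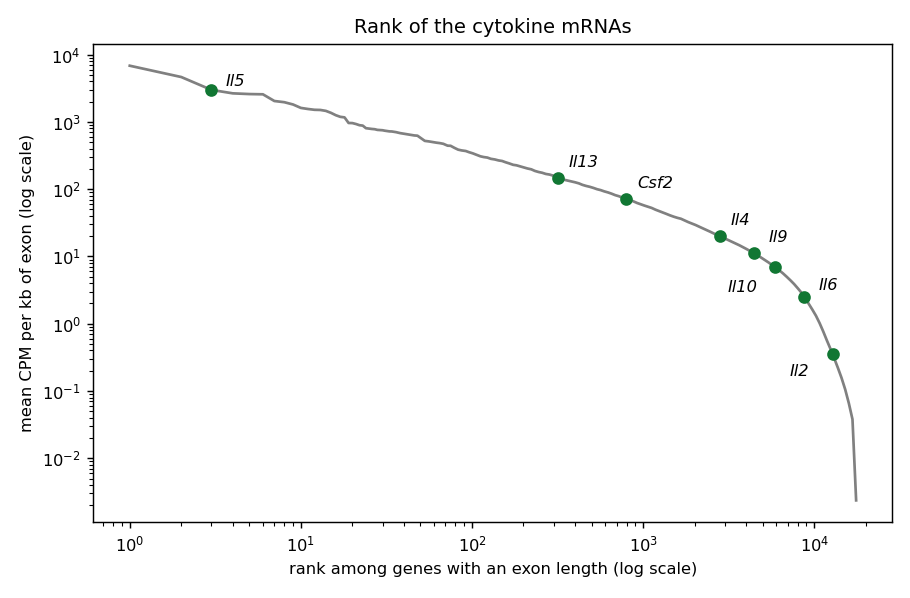
Mean level over the 6 libraries (CPM per kb of exon, log axis) against rank among 17579 genes (log axis), with the grey line for all genes and green points for the 8 cytokine genes. Il5 stands at rank 3, Il13 at 317, Csf2 at 796, Il4 at 2806, Il9 at 4462, Il10 at 5896, Il6 at 8750 and Il2 at 12807.

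Csf2 lies on chromosome 11 at 54247271 to 54249667 (minus strand, mm10). It was at 79.1, 62.2 and 95.3 CPM in control replicates 1, 2 and 3 and at 29.1, 37.9 and 41.8 CPM in the Piezo1_KO replicates. The lowest control library was above the highest Piezo1_KO library, and lower genes without overlap made up 10.5% of all genes tested. The means were 78.9 ± 16.6 and 36.3 ± 6.50 CPM (SD, n = 3), which gave a log2 fold change of -1.12 ± 0.19 (SE) with a 95% interval from -1.54 to -0.69 (adjusted p = 0.0290, edgeR). The call was lost when the fold was tested against a minimum of 1.5 (adjusted p = 0.318, edgeR) and when control replicate 1 or Piezo1_KO replicate 1, 2 or 3 was left out (adjusted p = 0.145, 0.141, 0.153 and 0.0875, edgeR), while the estimate stayed between -1.28 and -0.96 over 15 alternative fits. Mast cells and basophils also make GM-CSF, and the summed level of their markers (8 of 10 measured) was also lower, at 176 to 245 CPM in control and 127 to 140 CPM in Piezo1_KO. Kit made up most of that sum, so the lower sum is mainly that of 1 gene. It averaged 203 CPM in control and 126 CPM in Piezo1_KO and did not pass (adjusted p = 0.0577, edgeR). Cpa3, Cma1 and Tpsb2 were the other markers over 1 CPM, and Mcpt8, Tpsab1, Fcer1a and Hdc were under 1 CPM on average in the 6 libraries. Cma1 was the marker that passed the test, lower. NK cells and ILC1s are another lymphocyte source of GM-CSF, and their markers summed to 63.9 to 87.3 CPM in control and 40.2 to 59.8 CPM in Piezo1_KO (3 of 8 measured), nearly all of it Gzma. Prf1 averaged 2.26 CPM in control and 3.75 CPM in Piezo1_KO (log2 fold change 0.72, adjusted p = 0.575, edgeR). Tbx21, the defining factor of ILC1s, was over 1 CPM in every control library and at 0 in every Piezo1_KO library. Tbx21 was the 1 marker of this list that passed, lower (adjusted p = 0.0170, edgeR). Markers of ILC3s, another innate lymphoid type, overlapped between groups. They summed to 31.3 to 41.3 CPM in control and 31.2 to 35.3 CPM in Piezo1_KO (3 of 6 measured), nearly all of it Ahr. The T cell sums, at 174 to 215 CPM in control and 164 to 196 CPM in Piezo1_KO, overlapped as well. The part of any of these lists in the Csf2 result was not tested.

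The genes whose levels moved most like Csf2 over the 6 libraries were Ramp1, Anxa1 and Igfbp7. Likeness was the mean absolute difference between centred log2 CPM values, over 8650 genes whose log2 CPM averaged 3 or more. That difference was 0.122 for Ramp1, 0.127 for Anxa1 and 0.144 for Igfbp7, against a median of 0.560 over those genes. Ramp1, an accessory subunit of the CGRP receptor, averaged 54.9 ± 6.33 CPM in control libraries and 25.5 ± 3.59 CPM in Piezo1_KO libraries (SD, n = 3). Anxa1, the phospholipid-binding protein annexin A1, was at 52.9 ± 6.90 and 23.2 ± 1.39 CPM, and Igfbp7, a secreted IGF-binding protein, at 18.0 ± 4.23 and 7.74 ± 0.57 CPM. They were picked for this likeness, so their fall carries no test here.

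Many cytokine mRNAs are short-lived because proteins such as tristetraprolin (Zfp36) bind AU-rich elements, built on the pentamer ATTTA, in the 3′ UTR and recruit the deadenylation machinery. Every one of the 8 genes held at least 1 ATTTA in the annotated 3′ UTR, as did 66.2% of 11161 tested genes with a 3′ UTR in GENCODE M21. The 30-base windows below are those with the most pentamers in 4 of the genes, and capitals mark ATTTA. They are shown for Csf2, the gene that fell, and for Il2, Il9 and Il5, the 3 other genes whose groups did not overlap. Of all genes tested, 10.1% were higher and 10.5% were lower without overlap.
Csf2, bases 230 to 259 of its 3′ UTR: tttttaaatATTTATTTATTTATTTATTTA
Il2, bases 35 to 64 of its 3′ UTR: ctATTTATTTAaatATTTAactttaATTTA
Il9, bases 5 to 34 of its 3′ UTR: agatgctATTTAttctATTTAttgaATTTA
Il5, bases 91 to 120 of its 3′ UTR: gataccatatgctgtttccATTTAtATTTA

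Csf2 carried 9 pentamers in 317 bases, 28.4 per kb, a density that 0.0538% of the 11161 genes reached, and 5 of them overlap in the printed window. Il9 was denser, with 3 in 86 bases or 34.9 per kb, and Il4 came next with 2 in 104 bases. Il6 had 6 pentamers (14.1 per kb), Il2 had 7 (12.0 per kb), Il10 had 6 (8.50 per kb), Il5 had 7 in its 1092 bases (6.41 per kb) and Il13 had 3 (4.05 per kb), all above the median of 1.22 per kb over the tested genes. The list of 25 mRNA decay and stability factors also holds stem-loop binding proteins (Rc3h1, Rc3h2, Zc3h12a) and general deadenylation genes (Cnot and Btg). Under an unadjusted p of 0.05 (edgeR) there were 2 of the 25, against 13.2% of all genes tested. In either direction 0 of the 25 factors passed (edgeR), and DESeq2 and limma-voom called 0 of them. Their median log2 fold change was 0.03, Zfp36 was at 0.20 ± 0.10 (SE), and the factor with the smallest p was the related Zfp36l1 at 31.2 ± 1.20 CPM on average in control libraries against 23.0 ± 2.65 CPM in Piezo1_KO libraries (SD, n = 3), with a log2 fold change of -0.44 ± 0.12 (SE, adjusted p = 0.141, edgeR).

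Il5, Il13 and Il4 share the type 2 cytokine locus on chromosome 11 and are often expressed together. Il5 was measured at 3986, 4046 and 4082 CPM in the control replicates and at 4578, 5483 and 5417 CPM in the Piezo1_KO replicates. All 3 Piezo1_KO libraries were above all 3 controls, as for 10.1% of the genes tested, and the spread was small in control, with a coefficient of variation of 1.20% against 9.78% in Piezo1_KO. The log2 fold change of 0.35 ± 0.09 (SE, 95% interval 0.15 to 0.56) did not pass in edgeR (adjusted p = 0.120) and passed in DESeq2 (0.0220) and limma-voom with sample quality weights (0.0406). Eosinophils need IL-5, and of their 7 markers only Ccr3 was measured, at 3.43 to 6.30 CPM in control and 6.72 to 7.98 CPM in Piezo1_KO.

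Il13 was at 154, 155 and 181 CPM in the control replicates and at 177, 208 and 202 CPM in the Piezo1_KO replicates. Control replicate 3 was above Piezo1_KO replicate 1, so the groups overlapped. The log2 fold change was 0.26 ± 0.11 (SE, 95% interval 0.02 to 0.51, adjusted p = 0.339, edgeR). Il4 was at 18.5, 19.6 and 25.6 CPM in control and at 21.7, 33.5 and 28.7 CPM in Piezo1_KO. Here too control replicate 3 lay above Piezo1_KO replicate 1, and the log2 fold change was 0.41 ± 0.19 (SE, 95% interval -0.03 to 0.84, adjusted p = 0.418, edgeR). Neither Il13 nor Il4 passed in any of 15 alternative fits.

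**Figure D3:**
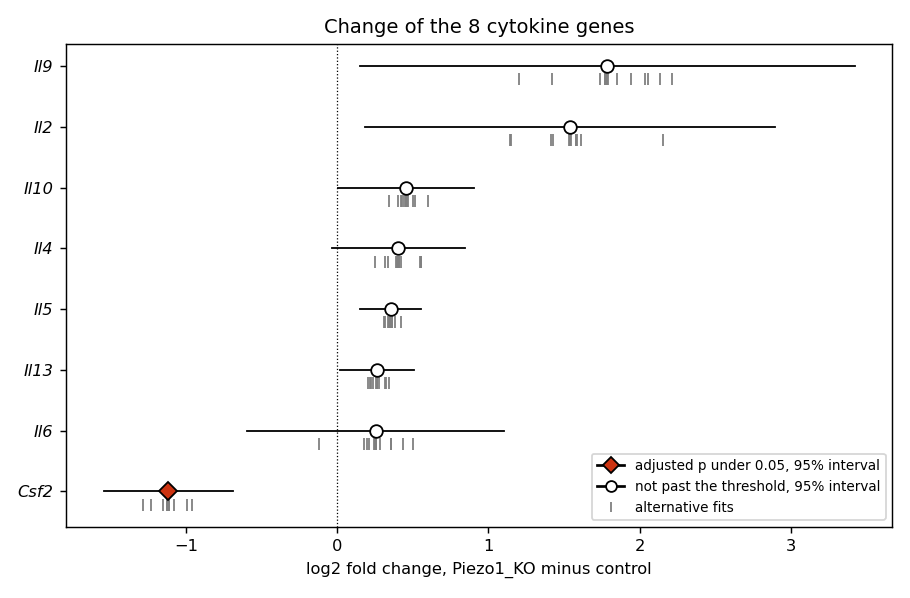
Log2 fold change of each gene, Piezo1_KO minus control, with its 95% interval (n = 3 per group), a red diamond for an adjusted p under 0.05, open circles for the others and grey ticks for the alternative fits. Csf2 stands at -1.12 with all of its ticks below 0, and the other 7 estimates lie between 0.26 and 1.79, Il6 being the only one of them with a tick below 0.

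Ratios within a library depend on no scaling between libraries, apart from a prior count of 2, and 4 were compared by an exact permutation test over libraries, two-sided, which with 3 against 3 cannot go below p = 0.1. The log2 ratio of Csf2 to Il5 was -5.65, -6.02 and -5.42 in the control replicates and -7.29, -7.17 and -7.01 in the Piezo1_KO replicates. The groups did not overlap, and the ratio was 1.46 log2 units lower in Piezo1_KO, which is 0.363 times the control ratio (exact permutation p = 0.1, or 0.4 adjusted over the 4 ratios). The ratio of Il13 to Il5 overlapped between groups and differed by -0.09 (exact permutation p = 0.3, adjusted 0.533), and that of Il4 to Il13 by 0.13 (exact permutation p = 0.4, adjusted 0.533). The ratio of Il6 to Il5 differed by 0.01 (exact permutation p = 1) and turned to -0.46 without control replicate 2. A design of this size cannot show that a ratio stayed equal.

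**Figure D4:**
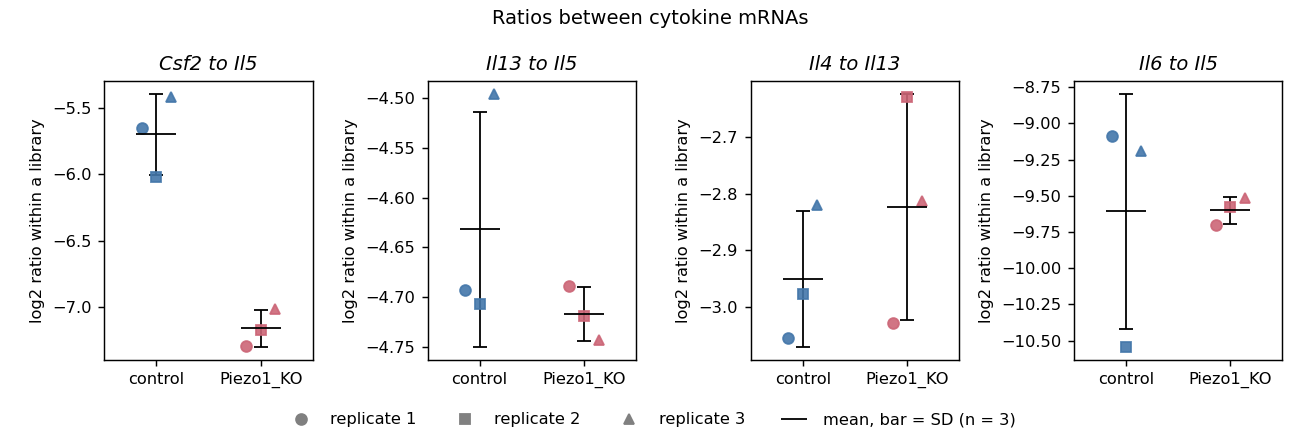
Log2 ratio between pairs of cytokine mRNAs within each library (vertical axes, log2 units, each panel with its own range), with control in blue, Piezo1_KO in red and black lines for the mean with an SD bar (n = 3). Csf2 to Il5 runs from -6.02 to -5.42 in control and from -7.29 to -7.01 in Piezo1_KO, and the groups overlap in the other 3 panels.

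The 8 genes together took 0.430%, 0.430% and 0.450% of the counts in the control replicates and 0.485%, 0.564% and 0.564% in the Piezo1_KO replicates, with 95% Wilson half-widths of at most 0.00363 percentage points, which cover counting error only. Every Piezo1_KO share was above every control share, and the difference of 0.101 percentage points had the smallest p the design allows (exact permutation p = 0.1). Il5 supplied 92.7% to 94.9% of those counts in each library. Without Il5 and Il13 the difference was -0.0028 percentage points.

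On the chromosome, Il4 (53602982 to 53618669, minus strand, mm10), Il13 (53631324 to 53634702, minus strand) and Il5 (53720794 to 53725106, plus strand) flank Rad50, whose gene body holds the control region of the type 2 locus. Csf2 lies 522 kb beyond Il5. Of the neighbouring genes, 12 placed at this locus by the annotation were tested, and none passed (edgeR). Rad50 averaged 138 ± 22.6 CPM in control libraries and 141 ± 10.1 CPM in Piezo1_KO libraries (SD, n = 3). Between Il5 and Csf2, Slc22a5, a carnitine transporter, had the smallest p of the neighbour list, at 20.2 ± 1.19 and 14.6 ± 1.55 CPM, a log2 fold change of -0.47 ± 0.13 (SE, adjusted p = 0.157, edgeR). The list as written also held Ccni, which the annotation placed on chromosome 5. It held Septin8 too, whose symbol had no single match in the annotation, so its position was not read. Over all 14 tested genes the median was 0.10, with 0 past the threshold by edgeR, DESeq2 or limma-voom. Under an unadjusted p of 0.05 (edgeR) there were 2 of the 14, both lower, against 13.2% of all genes tested in either direction.

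**Figure D5:**
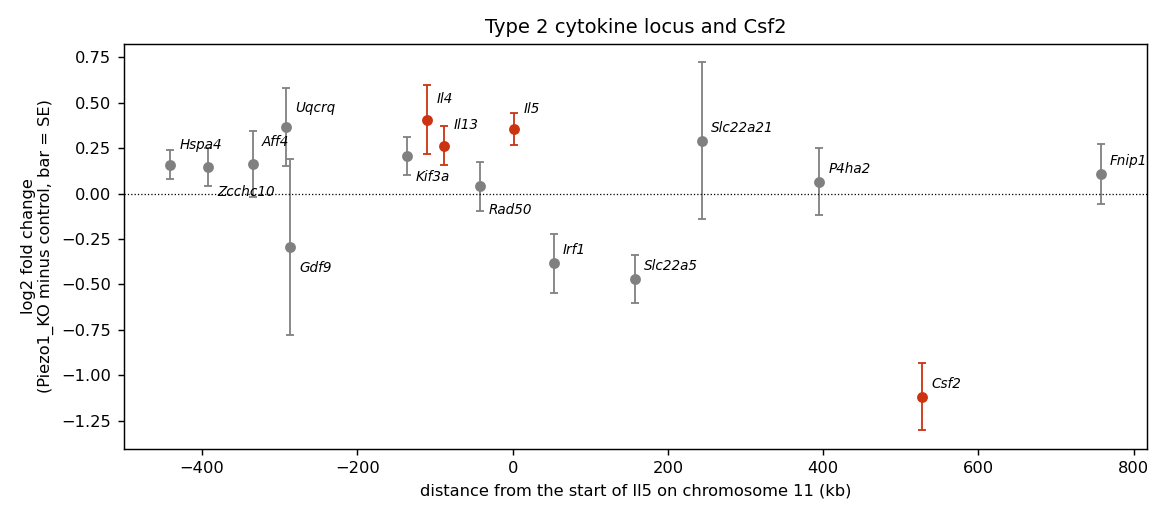
Log2 fold change (Piezo1_KO minus control, bars are SE, n = 3 per group) of the tested genes around the type 2 cytokine locus against distance in kb from the start of Il5, with the 4 cytokine genes in red and neighbours in grey. Il4, Il13 and Il5 sit at 0.26 to 0.41, Csf2 sits at -1.12, and no grey neighbour passed the test.

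NFAT factors, which carry calcium signals to the nucleus, GATA3, the defining factor of type 2 lymphocytes, and AP-1 are textbook regulators of these promoters. RefSeq promoters (GRCm38.p6) were at hand for 7 of the 8 genes, Il10 being the one without an entry, and the 250 bases before each start were searched on both strands for GGAAA (NFAT core), GATAA (GATA) and TGANTCA (AP-1). GGAAA occurred in 55.6% of all 32851 promoters of this length, GATAA in 22.6% and TGANTCA in 6.75%. The windows of the 3 locus genes are printed below because these genes sit side by side at very different levels, with matches on either strand in capitals.
Il4, chr11:53618666-53618915, minus strand: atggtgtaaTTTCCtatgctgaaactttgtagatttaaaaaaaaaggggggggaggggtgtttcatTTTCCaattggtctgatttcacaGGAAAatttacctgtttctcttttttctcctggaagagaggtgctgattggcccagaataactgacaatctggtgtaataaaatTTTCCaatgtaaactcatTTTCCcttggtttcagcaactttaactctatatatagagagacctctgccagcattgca
Il13, chr11:53634703-53634952, minus strand: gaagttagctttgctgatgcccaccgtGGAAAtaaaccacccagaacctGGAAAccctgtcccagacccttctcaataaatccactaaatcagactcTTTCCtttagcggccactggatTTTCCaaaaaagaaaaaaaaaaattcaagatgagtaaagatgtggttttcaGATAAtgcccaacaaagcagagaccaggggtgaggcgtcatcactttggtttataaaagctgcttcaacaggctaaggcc
Il5, chr11:53720544-53720793, plus strand: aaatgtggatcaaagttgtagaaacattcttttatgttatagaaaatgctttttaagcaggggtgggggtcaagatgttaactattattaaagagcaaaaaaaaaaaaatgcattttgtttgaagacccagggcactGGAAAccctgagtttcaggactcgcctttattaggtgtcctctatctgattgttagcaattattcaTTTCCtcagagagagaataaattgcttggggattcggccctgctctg

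RefSeq lists a further Il4 start 1331 bases from the GENCODE start, and the 250 bases before it held none of the motifs. The printed Il4 window held 5 GGAAA matches, a count that 0.390% of promoters reached, the Il13 window held 4 and 1 GATAA, and the Il5 window, in front of the most abundant of the 3 mRNAs, held 2 GGAAA. Il9 had 3 GGAAA and 1 TGANTCA, Il6 had 3 GGAAA, 1 GATAA and 1 TGANTCA, and Il2 had 2 GGAAA. Csf2 had 2 GGAAA and 1 GATAA before its RefSeq start, which lies 232 bases from the GENCODE start, so that window is not printed. Only GATAA was searched for GATA, so other forms such as GATAG were not counted. The printed Il5 window holds ctatc, which reads GATAG on the other strand. These are matches of letters, not binding sites.

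Of 38 measured transcription regulators of type 2 cytokine genes, 1 rose and 37 did not pass (edgeR), with a median log2 fold change of -0.05. Of all 14149 genes tested, 1.00% passed higher and 0.509% passed lower (edgeR), so 1 call in a list of this size is little above the background. At an unadjusted p under 0.05 there were 12 of them, 5 higher and 7 lower, against 13.2% of all genes tested (edgeR). The gene that rose was Nfil3, a basic leucine zipper factor needed for innate lymphoid development, at 91.2 ± 7.85 CPM on average in control libraries against 148 ± 11.8 CPM in Piezo1_KO libraries (SD, n = 3), with a log2 fold change of 0.70 ± 0.10 (SE, adjusted p = 0.0207, edgeR). Its call was lost without control replicate 1, without any 1 of the Piezo1_KO replicates and against a minimum fold of 1.5. Gata3 was at 986 ± 42.9 and 737 ± 46.2 CPM, a log2 fold change of -0.42 ± 0.09 (SE, adjusted p = 0.0612, edgeR), and DESeq2 and limma-voom called it lower together with Fos, an AP-1 subunit, and called Nfil3 higher, with Bhlhe40 also higher in DESeq2. Over all genes DESeq2 called 593 of 13600 and limma-voom called 439 of 14149. Gata3, Fos and Bhlhe40 were named here after their values were seen. The NFAT genes Nfatc1, Nfatc2 and Nfatc3 had values of -0.12 ± 0.17, 0.01 ± 0.20 and -0.06 ± 0.16.

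Il9 lies on chromosome 13 (56479277 to 56482246) and had the highest log2 fold change of the 8 genes and the largest standard error. It was at 3.77, 0.388 and 4.12 CPM in the control replicates and at 5.20, 9.19 and 13.2 CPM in the Piezo1_KO replicates. The groups did not overlap, and 10.1% of all genes tested were higher without overlap. Within control, replicate 2, the deepest library, stood 10.6-fold under replicate 3. The log2 fold change of 1.79 ± 0.71 (SE, 95% interval 0.15 to 3.42) did not pass (adjusted p = 0.329, edgeR) and was 1.20 without control replicate 2. Il2 (chromosome 3, 37120523 to 37125959) was close to the limit of detection, with 2.02 to 7.07 estimated counts per control library and 13.1 to 20.1 per Piezo1_KO library. That is 0.352, 0.119 and 0.150 CPM against 0.549, 0.691 and 0.555 CPM, without overlap, and the log2 fold change of 1.54 ± 0.59 (SE) did not pass (adjusted p = 0.307, edgeR) and was 2.15 without control replicate 1 and 1.15 without control replicate 2. Recombinant IL-2 protein was present in the culture of both groups and is not read as RNA.

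Il10 (chromosome 1, 131019845 to 131024974), a regulatory cytokine, was at 7.40, 8.30 and 7.27 CPM in control and at 8.12, 12.1 and 11.3 CPM in Piezo1_KO. Control replicate 2 lay just above Piezo1_KO replicate 1, and the log2 fold change was 0.46 ± 0.19 (SE, 95% interval 0.01 to 0.90, adjusted p = 0.368, edgeR). Il6 (chromosome 5, 30013114 to 30019981) was at 7.24, 2.63 and 6.90 CPM in control and at 5.41, 7.08 and 7.30 CPM in Piezo1_KO. Control replicate 2 was again the lowest library, the other 5 lay close together, and the log2 fold change of 0.26 ± 0.37 (SE, adjusted p = 0.824, edgeR) turned to -0.12 without that library. Control replicate 2 was the lowest control library for Csf2, Il9, Il6 and Il2, and was not the lowest for Il5, Il13, Il4 or Il10. On the other strand, Il5 overlaps Gm12214, Il2 overlaps Adad1 and Csf2 overlaps Gm12223. No source used here says whether counting was strand-specific, so reads of these pairs cannot be told apart.

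Receptor chains for these cytokines showed no calls. Of 11 measured chains 0 passed in edgeR, DESeq2 or limma-voom, and the median log2 fold change was -0.05. Under an unadjusted p of 0.05 (edgeR) there were 2 of the 11, against 13.2% of all genes tested. Il2ra, the high-affinity chain of the IL-2 receptor, had the smallest p, at 3469 ± 352 CPM on average in control libraries against 4318 ± 79.5 CPM in Piezo1_KO libraries (SD, n = 3), with a log2 fold change of 0.32 ± 0.09 (SE, adjusted p = 0.162, edgeR). The GM-CSF receptor chains were low, with Csf2rb at 38.4 ± 19.9 and 37.7 ± 4.27 CPM and Csf2ra at 3.78 ± 1.21 and 2.91 ± 0.18 CPM.

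Among 19 other cytokine genes that could be tested, 0 passed in edgeR and 7 were under an unadjusted p of 0.05, 4 of them higher. The share under that p over all genes tested was 13.2% in either direction. The median log2 fold change was 0.00. Osm, which encodes oncostatin M, had the smallest p, at 157 ± 12.6 CPM in control libraries against 204 ± 9.44 CPM in Piezo1_KO libraries, with a log2 fold change of 0.38 ± 0.09 (SE, adjusted p = 0.122, edgeR), and DESeq2 and limma-voom called it higher. DESeq2 also called Tnfsf10, which encodes TRAIL, higher. Those tools called 593 of 13600 (DESeq2) and 439 of 14149 (limma-voom) over all genes. Areg, the epithelial repair factor that ILC2s secrete beside IL-5 and IL-13, was at 0.39 ± 0.16 on the log2 scale (SE, adjusted p = 0.328, edgeR).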

How the data were processed

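The authors deposited 1 table of estimated counts per gene (6 libraries, 18057 genes, values not always whole), on genome build mm10, as the submitters' processing notes list it. Their aligner, counter, annotation and strand setting were not given in any source used here. No gene in the table summed to under 10 over the libraries. Counts were rounded, filtered with filterByExpr, scaled by TMM and tested with edgeR 4.0.16 (quasi-likelihood, no covariates) in R 4.3.3, Benjamini-Hochberg over 14149 genes, two-sided, threshold 0.05. CPM are counts scaled to a common library total with TMM. Log2 ratios use log2 CPM with a prior count of 2. Alternatives used limma 3.58.1 and DESeq2 1.42.0. The edgeR fit was tested on simulated counts, with 50 changed genes per fold, drawn from genes above a minimum count. It recovered 32% of them at 1.5-fold, 74% at 2-fold, 90% at 3-fold and 96% at 4-fold, with 6 false calls among 152. Smaller changes can thus go uncalled. Replicates differed beyond sampling noise (chi-square per gene 10.9 or more). Gene positions, exon lengths and 3′ UTRs come from GENCODE M21 (mm10), in which 17579 symbols were found once.

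The 8 members are named by the series' rule. Also named are Piezo1, up to 3 called genes per list with the smallest p (or the gene with the smallest p where none was called), and 3 genes most like Csf2. Genes outside this rule (marker genes, Gata3, Fos, Bhlhe40, Zfp36, Rad50, the NFAT and GM-CSF receptor genes, Tnfsf10, Areg) are given as context. Members and lists were chosen with earlier results of these data known, so no list's count or direction is independent evidence. Group membership was taken from the titles and genotypes.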

Additional observations from a re-analysis of the deposited data

How the results depend on the processing

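The count of genes past the threshold was 214 (edgeR), and it was 52 with the replicate block, 37 against a minimum fold of 1.5, 593 with DESeq2, 439 with limma-voom and 392 over protein-coding genes. Leaving out 1 library gave 33 to 297 genes and 0 to 1 members. Members past the threshold numbered 0 with the replicate block (Csf2, adjusted p = 0.0685, edgeR; the Nfil3 call was also lost, 0.130) and 0 against a minimum fold of 1.5, and 2 with DESeq2 and with limma-voom. Same-numbered libraries did not deviate together (correlations -0.02, -0.18 and -0.01), and differently numbered pairs ran from -0.18 to 0.21. With deviations centred within groups of 3, this check cannot exclude that libraries were handled in pairs. Csf2 passed in 9 of 15 alternatives and was negative in all 15. The share of counts in the 8 genes turned to -0.0028 percentage points without Il5 and Il13. Il6 ranged from -0.12 (without control replicate 2) to 0.50 when 1 library was left out, and the log2 ratio of Il6 to Il5 ranged from -0.46 to 0.27 when 1 library was left out. The causes were not tested. Il2, at 2.02 to 20.1 counts per library, is limited by depth.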
